A study of Mus musculus with 9 samples.

Results

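An unedited single-cell clone of PDA530 Met, a mouse pancreatic ductal adenocarcinoma line, was compared with the uncloned line it came from. The comparison measures how far expression differed between a clone and its parental population in the absence of the edit. The parental cells are PDA50 Met in the series' design text and PDA530 Met in the sample labels, and both names were taken as 1 line. The comparison used the 3 libraries labelled as the control clone and the 3 labelled as parental, 6 of the 9 libraries in the series. All 12476 expressed autosomal genes were tested, out of 50502 autosomal genes and 54838 identifiers in the table.

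The series addressed the loss of Zdhhc20, a gene for a palmitoyltransferase, which links the lipid palmitate to cysteines of proteins. PDA530 Met came from a liver metastasis in a male KPC mouse, a genetic model of pancreatic cancer, on a Mixed 129/SvJae/C57Bl/6 strain background. The control clone (C5) received the same guide RNAs by nucleofection as the knockout clone and its knockout failed. The parental cells were neither cloned nor, as far as the labels say, nucleofected, and the knockout clone (E4) was not part of the comparison. All cells were untreated and harvested under normal growth. Only 1 control clone was sequenced, so its 3 libraries are replicates of that clone, and the p-values measure the spread between libraries and not between clones. The submitters call them biological replicates and do not say whether they were separate cultures or harvests, so that spread may be partly technical. Effects of cloning, of nucleofection and of this particular founder cell cannot be told apart in this design.

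A single-cell clone carries forward the expression state of its founder, including genes that are stably silent or active in that cell, whereas an uncloned line averages over many such states. A gene at an intermediate level in the population can thus be absent in a clone if only some of the cells express it. In bulk RNA, fewer expressing cells and less RNA per cell cannot be told apart. Immediate early genes respond to growth factors within minutes through kinase signalling, so their level can also follow the current signalling of the culture. Which of these applied to any gene below was not tested.

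The libraries held 16525869 to 23192701 counts, and the tested autosomal genes held 93.14% to 95.89% of them. Of 9 markers of ductal epithelium, 8 had a mean of at least 1 CPM (TMM-scaled counts relative to the library total), among them Krt8, Krt18, Krt19 and Cdh1. The exception was Epcam, the epithelial cell adhesion molecule, at 0.117 to 0.241 CPM in the 6 libraries. Markers of leukocytes, endothelium, fibroblasts, acinar cells and endocrine cells summed to 0 to 7.62 CPM per library, against 6860 to 9720 CPM for the ductal markers. Of the hepatocyte markers Apob alone was abundant, at 1144 to 2335 CPM, and the other 6 summed to 0.178 to 2.99 CPM.

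The control libraries stood further apart from each other than the parental libraries did. Among 9758 genes with at least 5 CPM, 0.154% to 0.307% were 2-fold apart between parental libraries, 1.63% to 8.18% between control libraries and 2.75% to 7.65% between the groups. Control replicates 2 and 3 were the pair at 8.18%, above every pair between groups. Within a group, log2 CPM had a median SD of 0.201 (control clone) and 0.0829 (parental cells), and the control clone had the larger SD in 8234 of the 9758 genes.

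**Figure D1:**
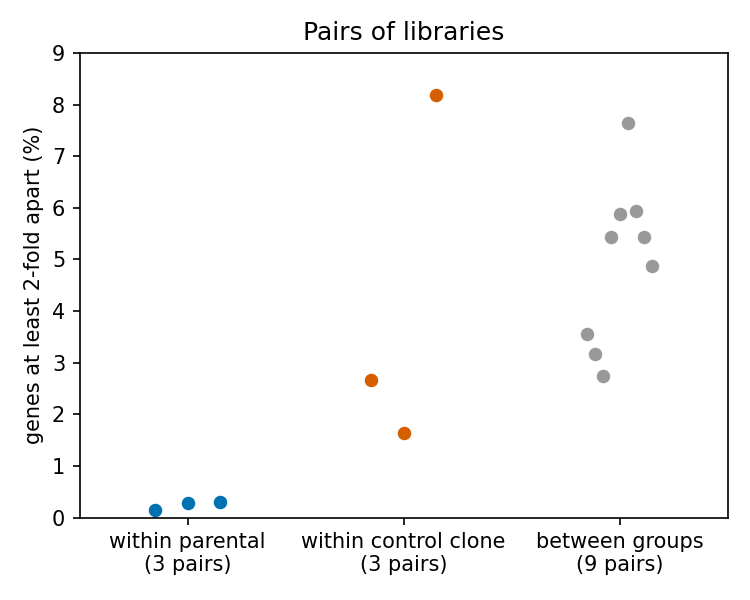
Share of 9758 genes (mean at least 5 CPM) that were at least 2-fold apart in each pair of libraries, in percent. Each point is 1 pair. The 3 parental pairs lie between 0.154% and 0.307%, and the control pair at 8.18% lies above all 9 pairs between groups.

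Zdhhc20, on the minus strand of chromosome 14 from 57832703 to 57890276 (GRCm38), had RNA in the unedited clone. Its level was 124, 85.6 and 119.5 CPM in the control libraries against 75.3, 80.7 and 90.3 CPM in the parental libraries. Control replicate 2 lay below parental replicate 3, so the groups overlapped. The log2 fold change of control clone minus parental was 0.42 (SE 0.16), with an adjusted p of 0.126 by the quasi-likelihood test of edgeR with Benjamini-Hochberg adjustment, the test behind each adjusted p below. Without control replicate 2 the difference was 0.56 with an adjusted p of 0.0121. Counts per gene do not show the targeted site.

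In total 1437 of the 12476 genes were called (11.5%) at an adjusted p under 0.05. Of these 718 (5.76%) were higher and 719 (5.76%) were lower in the control clone. The called genes differed by a median of 0.88 in absolute log2 fold change, against 0.237 over all genes tested. A difference of at least 2-fold was reached by 636 called genes (5.1%), of which 291 were higher and 345 lower. At 4-fold the split was 87 higher and 161 lower, and at 8-fold it was 33 higher and 91 lower. With scaling by total counts in place of TMM, 39.1% of the calls were higher rather than 50%. The 3 control libraries lay entirely above or below the 3 parental libraries in 4682 genes (37.5%), which include all 1437 called genes.

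The number of calls depended on single libraries. It was 745 without control replicate 1, and 2507 and 2526 without control replicates 2 and 3. It fell to 273, 279 and 425 without parental replicates 1, 2 and 3, where 34.4% to 37.2% of the calls were higher. No gene called in both was called in the opposite direction under any of these. A core of 242 genes, 76 higher and 166 lower, was called under the settings tried other than a test against a minimum fold of 1.2, a required 2-fold difference and a higher expression filter, and 220 of them differed at least 2-fold. Calls of single genes were followed under 15 alternatives at most, without the 1.2-fold test and the 2-fold requirement, and the alternatives named below are these.

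Large differences were concentrated among genes of low expression, while calls as such were spread over all levels. Of 811 genes under 1 CPM 15.2% were called, all of them at least 2-fold, and of 2352 genes at 100 CPM or more 9.61% were called and 0.808% (19 genes) at least 2-fold. Protein-coding genes made up 1315 of the 1437 calls.

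**Figure D2:**
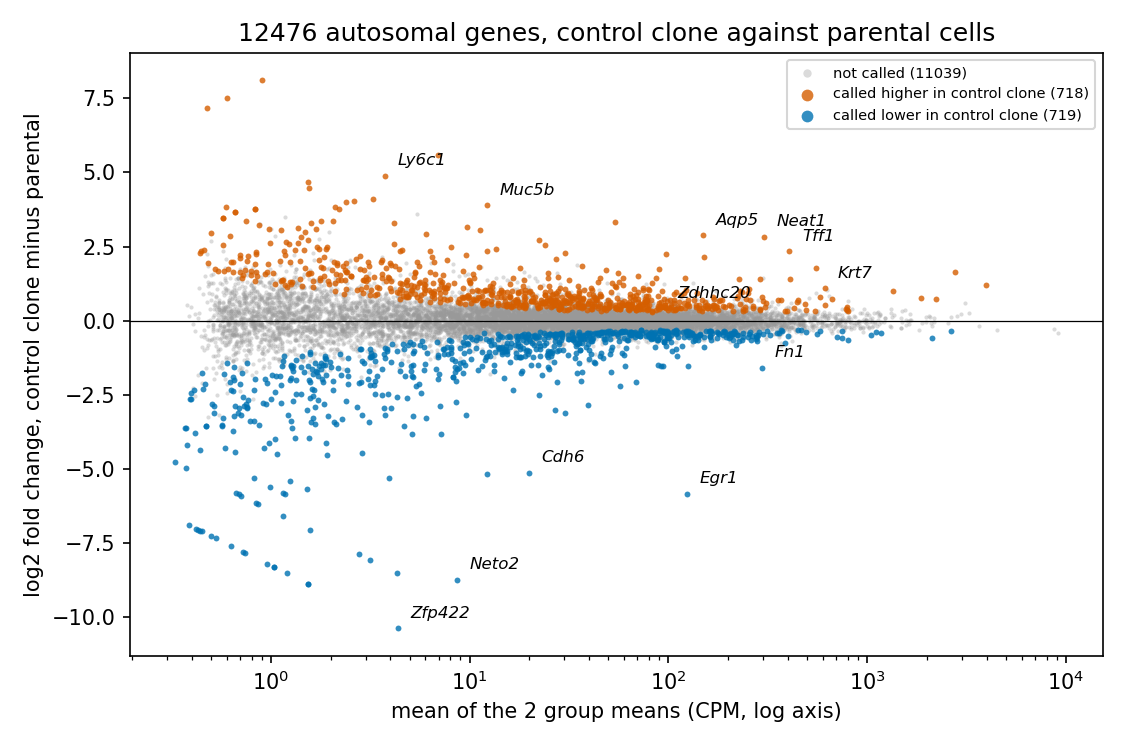
Log2 fold change of control clone minus parental (y axis) against the mean of both group means in CPM (x axis, log scale) for 12476 autosomal genes. Orange points are the 718 genes called higher, blue points the 719 called lower and grey points the 11039 others. Genes near the lower edge, such as Zfp422 and Neto2, had 0 to 2 counts in the control clone, so their fitted folds are no bound.

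A group of genes expressed in the parental cells was at or near 0 in the control clone. With at most 3 counts over the 3 control libraries and a mean of at least 1 CPM in the parental cells, there were 30 such genes, 29 of them protein-coding, and 11 had 0 counts. The converse, at most 3 counts in the parental cells and at least 1 CPM in the control clone, held for 2 genes, Tcp11 and Rab44. All of these genes passed the filter on low counts through the group that expressed them, and these limits were set after the values were seen, so the counts are a description.

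Zfp422, a zinc finger protein, had 0 counts in all 3 control libraries and 8.67, 8.27 and 9.20 CPM in the parental libraries. With 478 parental counts against a floor of 3 counts over the control group, it was at least 171-fold lower (adjusted p = 0.000835). The libraries of the knockout clone, scaled together with all 9 libraries, were at 0, 0.0556 and 0 CPM.

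Neto2, an auxiliary subunit of kainate receptors, had the highest parental level in this group, at 18.8, 17.8 and 15.1 CPM. Its control libraries held 2 counts in all, both in replicate 3, against 951 parental counts. The ratio was 509 with a 95% counting interval of 141 to 4210, and such intervals cover counting error only. It was also at 0, 0 and 0.0584 CPM in the knockout clone.

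Slc43a3, a transporter of purine nucleobases, had 1 count in the control clone and 472 in the parental cells, a ratio of 506 (counting interval 90.3 to 20000). Pogk, a KRAB domain protein derived from a pogo transposase, had 1 count against 350, a ratio of 375 (66.8 to 14800). Rasef, a Rab GTPase with EF hands, had 1 count against 304, a ratio of 326 (58 to 12900). In each of these genes every parental library was between 4.98 and 8.96 CPM and no control library was above 0.0593 CPM, so the groups lay far apart.

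Another 5 genes of at least 2 CPM in the parental cells had 0 counts in the control clone. They were Rnf130, a RING finger ubiquitin ligase (at least 60.7-fold lower), Homer2, a scaffold protein of synapses (at least 60.3-fold), Sulf1, a heparan sulfate endosulfatase (at least 47.5-fold), Cdcp1, a transmembrane substrate of Src kinases (at least 41.1-fold), and Ppp1r26, a regulatory subunit of protein phosphatase 1 (at least 41.1-fold). Their parental libraries ranged from 1.58 to 3.46 CPM. In the knockout clone the same 5 genes held 2, 0, 4, 0 and 0 counts over 3 libraries.

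Among the remaining genes near 0, several have well known roles and were picked after their values were seen. Cftr, the chloride channel of ductal epithelium, had 0 control counts against 79 parental counts. Lifr, the receptor of leukemia inhibitory factor, had 3 against 62, and Prkaa2, a catalytic subunit of AMP-activated kinase, had 1 against 75. Each was called lower, and none of these 3 calls was lost under any alternative in which the gene was tested. Their counts in the knockout clone were 11, 0 and 5. In contrast Rab6b, a Rab GTPase, had 2 control counts, 108 parental counts and 273 in the knockout clone. In the other direction Tcp11, a gene known from testis, had 106 control counts and 0 parental counts, and Rab44 had 69 and 0.

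Sequence before the RefSeq start is shown for both of the most abundant silent genes to give the base composition of their promoters. The 250 bases before the gene start as RefSeq places it on GRCm38.p6 are printed 5′ to 3′ on the gene's strand with every CpG in capitals. Zfp422 lies on the minus strand at chr6:116628702-116628951 and Neto2 on the minus strand at chr8:85700925-85701174. GENCODE M21, used for the other positions, begins Neto2 at the same base but extends Zfp422 to 116628999, so the Zfp422 window lies within the gene as annotated there.
Zfp422: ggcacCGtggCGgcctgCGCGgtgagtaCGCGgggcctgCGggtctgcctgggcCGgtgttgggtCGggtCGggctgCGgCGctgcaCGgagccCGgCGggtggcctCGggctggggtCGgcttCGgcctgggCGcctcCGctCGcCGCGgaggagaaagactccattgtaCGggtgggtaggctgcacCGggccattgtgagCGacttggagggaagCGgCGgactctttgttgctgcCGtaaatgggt
Neto2: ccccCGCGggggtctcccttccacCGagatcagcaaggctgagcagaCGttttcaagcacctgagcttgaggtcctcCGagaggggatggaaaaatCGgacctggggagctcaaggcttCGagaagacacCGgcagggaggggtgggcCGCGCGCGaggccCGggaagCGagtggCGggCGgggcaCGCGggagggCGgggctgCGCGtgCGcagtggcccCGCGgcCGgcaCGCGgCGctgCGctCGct
The Zfp422 window holds 29 CpG and the Neto2 window 30, more than 86.9% and 88.6% of the 9136 tested genes with a promoter entry, whose median was 16. Of the 30 genes near 0 in the control clone 26 had an entry, with a median of 27.5 CpG and quartiles of 20 and 39. Cdcp1 had 9 and Homer2 40. The 68 promoters of genes called at least 8-fold lower had a median of 17, and the 22 of genes called at least 8-fold higher had a median of 3.5. These sets were chosen after the values were seen, so no test is given.

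The other 7 of the 12 lowest genes kept some RNA in the control clone. Egr1 is described with the immediate early genes below. Cdh6 (chr15:13028701-13173675), a classical cadherin that joins neighbouring cells, was at 1.23, 1.48 and 0.626 CPM in the control libraries against 43.5, 38.9 and 34.0 CPM in the parental libraries (log2 fold change -5.12, SE 0.27, adjusted p = 0.000333). Ptpn13, a protein tyrosine phosphatase, was at 0.614, 0.593 and 0.783 CPM against 24.8, 24.2 and 22.6 CPM (-5.15, SE 0.16, adjusted p = 3.93e-05). The control libraries of both genes were far below the parental ones, and those of Cdh6 were over 2-fold apart. In the knockout clone Cdh6 was at 26.8 to 33.8 CPM and Ptpn13 at 1.46 to 2.44 CPM. Against the parental cells the knockout clone was lower in Cdh6 by 0.36 on the log2 scale (adjusted p = 0.0145).

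Car12, a carbonic anhydrase of the cell membrane, was at 0.176, 0.178 and 0.209 CPM against 6.64, 7.97 and 8.38 CPM (-5.31, SE 0.25). Slc16a10, a transporter of aromatic amino acids, was at 0.0439, 0.356 and 0.365 CPM against 5.06, 5.34 and 6.04 CPM (-4.46, SE 0.49). Cspg4, the proteoglycan NG2, was at 1.05, 0.593 and 1.15 CPM against 12.3, 12.9 and 15.1 CPM (-3.82, SE 0.25). Casd1, which adds acetyl groups to sialic acids, was at 0.702, 0.771 and 0.574 CPM against 9.63, 9.44 and 9.79 CPM (-3.81, SE 0.19). The adjusted p of these 4 genes was 0.000333 to 0.00351. None of the 12 lowest genes lost its call under any alternative in which it was tested, and the largest adjusted p among them was 0.0285, for Slc16a10 without parental replicate 2.

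The 12 highest genes ranged from a log2 fold change of 2.55 (Pkhd1l1) to 4.89 (Ly6c1). Aqp5 (chr15:99590782-99594829), a water channel of secretory glands, was the most abundant of them, at 197, 314 and 284 CPM in the control libraries against 37.0, 32.7 and 37.7 CPM in the parental libraries. The groups were well apart (log2 fold change 2.89, SE 0.19, adjusted p = 0.000734). Its level in the knockout clone was 34.96 to 38.8 CPM.

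Muc5ac (chr7:141788972-141819231), a gel-forming mucin, was at 140.2, 111 and 43.2 CPM in the control libraries against 9.73, 8.33 and 11.4 CPM in the parental libraries (3.32, SE 0.43, adjusted p = 0.00594). Its neighbour Muc5b, another gel-forming mucin, was at 19.2, 13.4 and 36.4 CPM against 1.44, 1.52 and 1.64 CPM (3.90, SE 0.41, adjusted p = 0.00307). Control replicate 3 was the lowest control library for Muc5ac and the highest for Muc5b, while both were lower in control replicate 2 than in replicate 1. In the knockout clone Muc5ac was at 0.0556 to 0.117 CPM and Muc5b at 0 to 0.117 CPM.

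Slc26a9, a chloride transporter of gastric and airway epithelium, was at 6.14, 3.62 and 13.0 CPM against 0.674, 0.938 and 0.703 CPM (3.29, SE 0.52). Dmkn, a secreted protein of skin and other epithelia, was at 13.9, 7.30 and 11.0 CPM against 1.06, 0.762 and 2.40 CPM (2.94, SE 0.43). Ces2c, a carboxylesterase, was at 39.9, 22.01 and 54.0 CPM against 3.51, 4.93 and 9.14 CPM (2.73, SE 0.44). The control libraries of these genes spread widely, and replicate 2 was the lowest of them in all 3 genes.

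Pkhd1l1, a large membrane protein related to fibrocystin, was at 44.9, 30.3 and 48.2 CPM against 7.61, 6.16 and 7.27 CPM (2.55, SE 0.20). Scn8a, a voltage-gated sodium channel, was at 17.6, 15.4 and 27.8 CPM against 2.70, 2.58 and 2.05 CPM (3.04, SE 0.27). Hpcal4, a neuronal calcium sensor, was at 15.8, 14.5 and 22.2 CPM against 1.93, 2.23 and 1.76 CPM (3.15, SE 0.22). Speg, a kinase of striated muscle, was at 5.62, 2.61 and 10.3 CPM against 0.193, 0.469 and 0.410 CPM (4.12, SE 0.62), and Myo1g, a class I myosin, at 6.58, 2.67 and 12.2 CPM against 0.867, 0.704 and 1.99 CPM (2.60, SE 0.62). The calls of Myo1g, Ces2c, Dmkn, Slc26a9 and Speg were lost without parental replicate 1, with adjusted p of up to 0.166 (Myo1g), and that of Myo1g also with limma voom. Those of Pkhd1l1, Aqp5, Scn8a, Hpcal4, Muc5ac, Muc5b and Ly6c1 held under the alternatives tried.

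**Figure D3:**
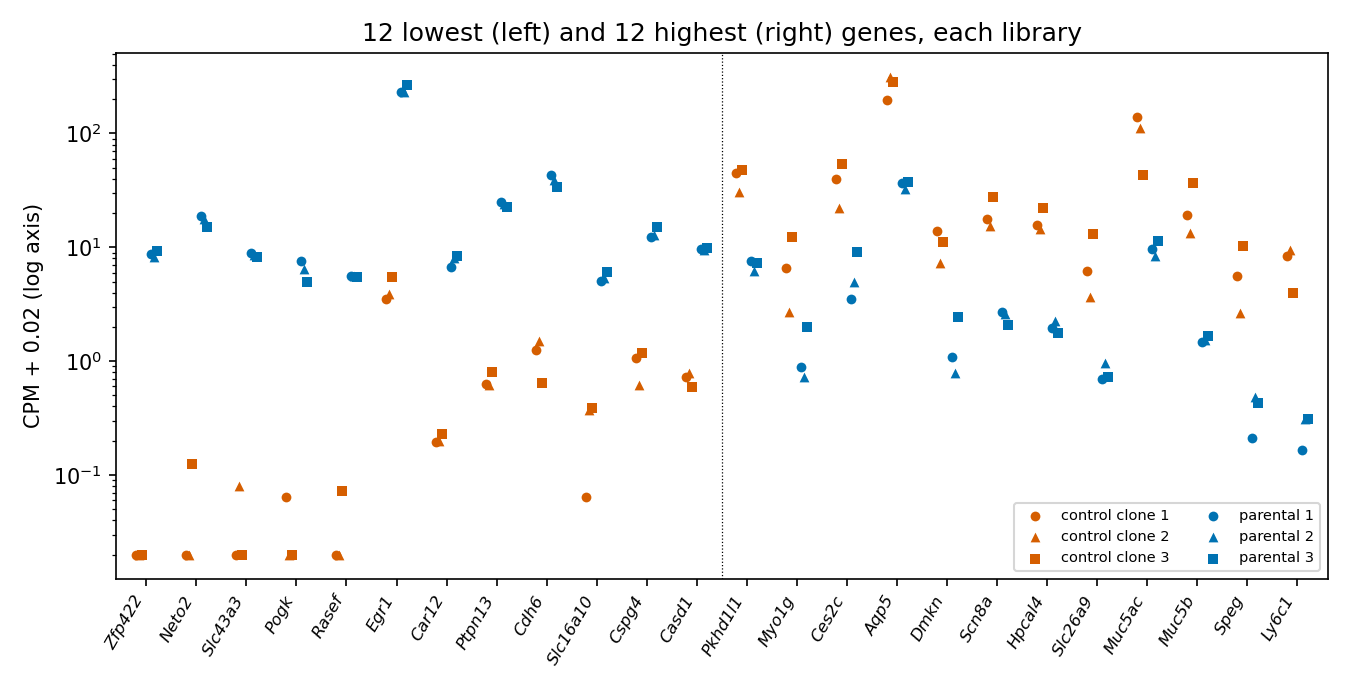
Level of the 12 lowest (left of the dotted line) and 12 highest genes in each of the 6 libraries, as CPM + 0.02 on a log axis. Orange marks are control clone libraries and blue marks parental libraries, with circle, triangle and square for replicates 1, 2 and 3. The left 12 genes show tight parental values with control values at or near 0 for 5 genes, and the right 12 show a wider spread among control libraries than among parental ones in genes such as Muc5ac.

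Mucins and trefoil factors, secreted or membrane-bound proteins of the mucous layer, were followed as a family after Muc5ac and Muc5b had been seen. Of 14 members 5 were tested and all 5 were called higher, against 5.76% of all genes, and as the family was picked after its values were seen the count is a description. Among them Muc4 passed the filter on low counts only through the control clone, where it was high. Tff1, a trefoil factor, was at 725, 483 and 832 CPM against 95.7, 114 and 192 CPM (2.35, SE 0.31, adjusted p = 0.00646). Muc1, a membrane mucin, was at 342, 276 and 368 CPM against 125, 115 and 135 CPM (1.39, SE 0.13, adjusted p = 0.00249). Muc4, also a membrane mucin, was low, at 2.85, 1.54 and 6.94 CPM against 0.530, 0.176 and 0.352 CPM (3.37, SE 0.68, adjusted p = 0.0234, and up to 0.105 without a parental library). The 9 members that were not tested had at most 15 counts over the 3 libraries of either group.

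The Ly6 family, small surface proteins held by a GPI anchor, had 8 of 26 members tested, of which 5 were higher and 0 lower, against 5.76% of all genes called in each direction. Of the 5, Ly6c1, Ly6f and Slurp1 passed the filter on low counts only through the control clone, where they were high, so the count is a description. Psca, prostate stem cell antigen, was at 220.4, 173 and 141 CPM in the control clone and 57.2, 54.8 and 84.6 CPM in the parental cells (1.44, SE 0.22, adjusted p = 0.00992). Ly6a, known as the stem cell antigen Sca-1, was at 13.8, 14.6 and 12.6 CPM against 1.97, 2.52 and 2.87 CPM (2.48, SE 0.18, adjusted p = 0.000972). The highest log2 fold change of the 12 highest genes was that of Ly6c1, at 8.38, 9.49 and 3.92 CPM against 0.144, 0.293 and 0.293 CPM (4.89, SE 0.48, adjusted p = 0.00252).

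Ly6f (3.10, SE 0.39) and Slurp1 (3.28, SE 0.55), a secreted member, were also higher, both from at most 0.586 CPM in each parental library. Ly6e (0.25, adjusted p = 0.138), Lynx1 and Lypd6b were not called. From Psca to Ly6f on chromosome 15 (positions 74714839 to 75272235), 9 genes were tested, of which 6 were higher and 0 lower, a description too, since called genes set the ends of this stretch. In the knockout clone Psca was at 15.8 to 22.03 CPM and Ly6a at 0 to 1.11 CPM. The calls of Psca and Slurp1 were lost without parental replicate 1 or 2 (adjusted p up to 0.0647 and 0.0794). Where Ly6 genes are near-identical, reads are divided between the copies by an estimate, so values of such members are uncertain. Which members this affected was not examined.

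Of the 19 genes of at least 100 CPM that were called at least 2-fold, 5 were lower and 14 higher. Besides Egr1 and Fn1 the lower ones included Thbs4, a thrombospondin of the matrix (-1.53, SE 0.19), and Fam149a (-1.02, SE 0.22), whose call was lost without control replicate 1 or any 1 parental replicate (adjusted p up to 0.104). Among the higher ones Mme, the membrane peptidase neprilysin, was at 590, 522 and 678 CPM against 227, 215 and 232 CPM (1.41, SE 0.11, adjusted p = 0.00139). Serpinb9b, a serine protease inhibitor, was at 182, 366 and 190.1 CPM against 53.7, 51.5 and 61.4 CPM (2.15, SE 0.28). The long noncoding RNA Neat1, the scaffold of paraspeckles, was at 317, 297 and 982 CPM against 81.8, 73.2 and 69.7 CPM (2.83, SE 0.48, adjusted p = 0.0132, and up to 0.0773 without a parental library). Control replicate 3 was far above the other control libraries for Neat1.

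Another 4 of these abundant genes, Gm10925, Gm28661, Gm29216 and Gm28439, are copies of mitochondrial sequence on chromosome 1. They took 0.971% to 1.19% of the counts in the control libraries and 0.364% to 0.506% in the parental libraries. Genes of the mitochondrial chromosome moved with them, at 3.45% to 4.11% against 1.2% to 1.62%. Reads of copies and originals are hard to assign, so their values are uncertain.

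Immediate early genes had the highest share of calls among the lists with over 10 tested members. Of 31 members 29 were tested, and 12 were lower and 1 was higher in the control clone. That is 44.8% called, against 11.5% of all genes tested, with a median log2 fold change of -0.52 against 0.017. Of the 12, Egr2 and Egr3 passed the filter on low counts only through the parental cells, where they were high, so the count is a description. The list was chosen with earlier results of these data known.

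Egr1 (chr18:34859823-34864984), a zinc finger transcription factor induced by serum and ERK signalling, differed most among abundant genes. It was at 3.51, 3.86 and 5.43 CPM in the control libraries against 230.2, 231 and 268 CPM in the parental libraries (log2 fold change -5.83, SE 0.19, adjusted p = 3.93e-05). The highest control library was far below the lowest parental one, and the gene was called under every alternative. In the knockout clone Egr1 was at 126 to 162 CPM.

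Its paralog Egr2 had 3 counts in the control clone against 132 in the parental cells, a ratio of 47.1 with a counting interval of 15.8 to 231. Egr3, another member of the family, was at 0.439, 0.237 and 0.887 CPM against 1.69, 2.05 and 2.29 CPM (-1.92, SE 0.44, adjusted p = 0.0350). The 3 tested EGR genes were thus called in the same direction, and Egr4 was below the filter with 1 count in all. Egr2 and Egr3 passed the filter on low counts only through the parental cells, where they were high, so this agreement is a description.

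The AP-1 genes, whose products pair as FOS and JUN proteins, were divided. Fos was at 5.66, 3.98 and 10.2 CPM against 40.5, 34.0 and 39.0 CPM (-2.51, SE 0.32, adjusted p = 0.00577). Jun was at 11.5, 12.2 and 11.0 CPM against 32.8, 34.0 and 31.1 CPM (-1.50, SE 0.10, adjusted p = 0.000841). Both had groups that did not overlap, as did every called gene and 37.5% of all genes tested. Junb fell by 0.34 on the log2 scale (SE 0.09, adjusted p = 0.0482), a call lost without a filter. Fosl2 was higher (0.68, SE 0.11, adjusted p = 0.0106), and Fosb (-0.96), Fosl1 (0.16) and Jund (0.16) were not called.

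Ier2, an immediate early nuclear protein, was at 24.9, 28.0 and 26.0 CPM against 100.4, 106 and 127 CPM (-2.08, SE 0.12, adjusted p = 0.000452). Dusp1, a phosphatase that switches off MAP kinases, was at 17.4, 36.4 and 18.4 CPM against 73.4, 66.3 and 96.7 CPM (-1.72, SE 0.30, adjusted p = 0.0161). Zfp36, tristetraprolin, which speeds the decay of messenger RNAs, was at 12.6, 7.95 and 17.2 CPM against 31.5, 32.2 and 47.9 CPM (-1.56, SE 0.29, adjusted p = 0.0195). Control and parental libraries were separate in all 3 genes, as in every called gene and in 37.5% of all genes tested. Ier5 (-0.84), Ier3 (-0.52) and Klf6 (-0.49) were lower by smaller amounts.

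Other members that respond to serum were not called. Myc was at 150.2, 231 and 122 CPM against 155, 132 and 152 CPM (log2 fold change 0.20, adjusted p = 0.605), and the groups overlapped. Ccn1, a matricellular protein, was at 109, 519 and 169 CPM against 456, 425 and 546 CPM (-0.84, adjusted p = 0.330). Control replicate 2 alone was at the parental level of Ccn1. The 13 calls fell to 7 without control replicate 1 and to 6 without any parental replicate. Egr1, Egr2, Fos, Ier2, Jun and Ier5 kept their calls under every alternative in which they were tested.

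**Figure D4:**
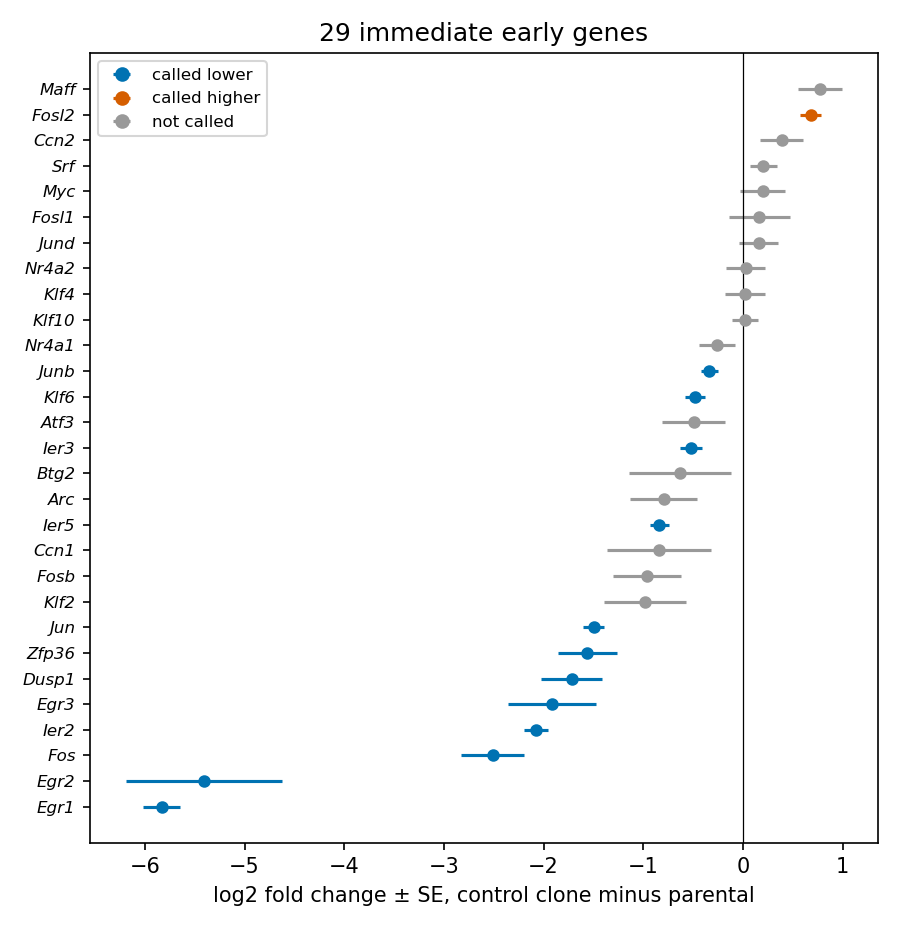
Log2 fold change of control clone minus parental with its SE for the 29 immediate early genes tested, sorted by value. Blue genes were called lower, the orange gene higher and grey genes were not called. Egr1 and Egr2 lie beyond -5, while Myc, Klf4 and Nr4a2 lie near 0.

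The serum response element (CArG) and the cAMP response element TGACGTCA were searched on both strands in the 250 bases upstream of each gene start in RefSeq on GRCm38.p6. CArG was taken in its strict form of CC, a run of A or T bases and GG. Of the 12 lower members 9 promoters were read. Of these 1 held a CArG (Zfp36, first base at -58) and 1 a TGACGTCA (Dusp1, at -143). Egr1 was left out of the search, and Ier2 and Egr3 had no promoter entry. The counts therefore say nothing about these genes. Of the 17 other tested members 12 could be read, with 1 gene for each motif (Srf and Btg2). Over all 9136 promoters read, 1.02% held a CArG and 2.86% a TGACGTCA. The Zfp36 promoter, on the minus strand at chr7:28379229-28379478, is shown with its CArG in capitals as the one match among the 9 lower genes read. GENCODE M21 extends Zfp36 to position 28380253, so the window lies within the gene as annotated there.
Zfp36: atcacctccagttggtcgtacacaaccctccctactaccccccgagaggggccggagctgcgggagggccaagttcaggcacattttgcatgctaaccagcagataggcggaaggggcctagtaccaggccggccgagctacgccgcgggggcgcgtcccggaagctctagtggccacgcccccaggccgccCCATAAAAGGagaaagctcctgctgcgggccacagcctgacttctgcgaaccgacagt
A match describes these letters only, and this window does not reach more distal elements.

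Genes further along the ERK pathway were called about as often as all genes. Of 15 output and feedback genes tested, 2 were called, both higher, 13.3% against 11.5% overall. They were Ccnd1, cyclin D1 (0.45, SE 0.11, adjusted p = 0.0429), and Dusp4, an ERK phosphatase (0.62, SE 0.16, adjusted p = 0.0467), and neither call held without a parental replicate or with total counts. The call of Dusp4 was also lost with size factors of DESeq2, with limma voom, with a mean of at least 5 CPM and without control replicate 2 or 3, in 10 of 15 alternatives in all. Of 11 tested genes of the EGF receptor family and its ligands, 0 were called by edgeR, where 2 had an unadjusted p under 0.05, 0 by limma voom and 2 by DESeq2. Egfr was at 17.0, 33.8 and 15.3 CPM against 23.7, 22.5 and 18.8 CPM (0.02, adjusted p = 0.967). Nrg1, a ligand of ERBB3, was at 16.5, 48.5 and 16.8 CPM against 14.3, 12.9 and 9.61 CPM (1.14, adjusted p = 0.136), without overlap. Without control replicate 2 the number of calls was 4.

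In the VEGF family 8 members were tested, with 2 higher and 1 lower (37.5% called, against 11.5% overall). Vegfa, the main angiogenic ligand, was at 259, 242 and 424 CPM against 156, 151 and 171 CPM (0.95, SE 0.21, adjusted p = 0.0327). Pgf, placental growth factor, was at 7.64, 27.9 and 11.9 CPM against 4.43, 3.93 and 1.76 CPM (2.21, SE 0.54, adjusted p = 0.0425). The receptor Nrp2, neuropilin 2, was at 28.6, 33.8 and 20.8 CPM against 73.5, 72.1 and 51.3 CPM (-1.24, SE 0.21, adjusted p = 0.0138). Control replicate 3 was the highest for Vegfa and replicate 2 for Pgf. All 3 calls were lost without parental replicate 1 or 2, and that of Pgf with limma voom.

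Epithelial genes showed no common direction. Of 24 tested, 2 were higher and 2 lower (16.7% called, against 11.5% overall), with a median of -0.02. Of the 2 lower, Pkp1 passed the filter on low counts only through the parental cells, where it was high, so the count is a description. Krt7, a keratin of ductal epithelium, was at 843, 745 and 936 CPM against 387, 385 and 408 CPM (1.097, SE 0.10, adjusted p = 0.00249), and Muc1 is given above. Pkp1, a plakophilin of desmosomes, fell by 2.48 (SE 0.44) from 1.88 to 2.74 CPM, and Cldn7, a claudin of tight junctions, by 1.08 (SE 0.21), on the log2 scale. The calls of Krt7 and Muc1 held throughout and those of Pkp1 and Cldn7 were lost without any 1 parental replicate.

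Mesenchymal genes held 4 lower and 0 higher of 16 tested, 25% called, against 5.76% called lower over all genes. Of the 4, Twist1 passed the filter on low counts only through the parental cells, where it was high, so the count is a description. Fn1, fibronectin, was at 153, 156 and 136 CPM against 494, 446 and 389 CPM (-1.58, SE 0.12, adjusted p = 0.00107). Its groups were well apart, and in the knockout clone it was at 749 to 849 CPM. Twist1, a transcription factor of mesenchyme, was at 0.439, 0.415 and 0.157 CPM against 1.93, 2.58 and 2.23 CPM (-2.70, SE 0.39). Zeb2, another such factor, fell by 0.92 (SE 0.17) and Sparc, a matricellular protein, by 0.77 (SE 0.17). Of the 16, 7 had a positive and 9 a negative log2 fold change, with a median of -0.06. Without parental replicates 1, 2 and 3 the calls were 2, 1 and 2, and Fn1 held throughout.

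Of 6 tested cadherins besides E-cadherin 3 were called, 50% against 11.5% overall. Next to Cdh6, Cdh3 (P-cadherin) was at 9.48, 10.5 and 6.37 CPM against 20.3, 18.998 and 15.1 CPM (-1.05, SE 0.21, adjusted p = 0.0245). Cdh10 was higher, at 5.31, 3.62 and 4.49 CPM against 2.31, 1.76 and 0.938 CPM (1.41, SE 0.34, adjusted p = 0.0401). Without any 1 parental replicate, or without control replicate 1, Cdh6 alone was called. Among 21 matrix proteins (23.8% called) 2 were higher, Col4a2 (0.70) and Nid1 (0.42, a call lost with total counts) of the basement membrane, and 3 lower, Fn1, Sparc and Fbln1 (-0.94), and the number of calls was 1 to 2 without a parental replicate and 8 to 9 without control replicate 2 or 3.

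Cell cycle and replication genes had 2 of 30 called, 6.67% against 11.5% overall. Both encode subunits of the replicative helicase. Mcm6 was at 179, 178 and 119 CPM against 298, 280.4 and 266 CPM (-0.82, SE 0.16, adjusted p = 0.0229), and Mcm4 fell by 0.66 (SE 0.16). The median of the list was -0.28, and 25 of 30 values were negative. Control replicate 3 was the lowest of the 6 libraries in 28 of the 30 genes. The summed level was 6682, 7652 and 3965 CPM in the control libraries against 7314 to 7533 CPM in the parental ones. Without control replicates 2 and 3 the calls were 10 and 8, and without any parental replicate 0. Over all genes 2526 were called without control replicate 3, among them 1384 of the 1437.

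Of 15 p53 target genes 3 were higher (20%, against 5.76% of all genes) and 0 lower. They were the death receptor Tnfrsf10b (0.96, SE 0.09, adjusted p = 0.00219), Pmaip1, which encodes the BH3 protein NOXA (0.84, SE 0.16), and Perp (0.73, SE 0.14). Tnfrsf10b alone was called without each parental replicate. Trp53 itself was at 149, 198 and 106 CPM against 182, 167 and 151 CPM and was not called (-0.15, adjusted p = 0.693). Of 10 pancreatic cancer drivers 2 were called, 20% against 11.5% overall. Rnf43, a ubiquitin ligase that restrains WNT signalling, was at 20.5, 22.96 and 18.3 CPM against 10.6, 12.2 and 11.7 CPM (0.84, SE 0.13), and Brca2 fell by 0.93 (SE 0.19). Neither driver call held without a parental replicate.

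Of 12 tested transcription factors of pancreas and endoderm 4 were lower (33.3%, against 5.76% of all genes) and 0 higher, and the decreases were small. Hnf4a was at 247, 201 and 254 CPM against 329.9, 314 and 343 CPM (-0.49, SE 0.11, adjusted p = 0.0330). Foxa2 fell by 0.41. In both genes the control libraries lay below the parental ones, as in every gene called lower. Groups did not overlap in 37.5% of all genes tested. The number of calls was 0 without any 1 parental replicate or without control replicate 1, and 7 without control replicate 2.

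Against 11.5% of all genes, 23.1% of the interferon-stimulated genes, 18.2% of the MHC class I genes and 8.33% of the chemokines and cytokines were called. Of 13 tested interferon-stimulated genes 1 was higher and 2 were lower. Ifih1, the RNA sensor MDA5, was at 2.19, 0.949 and 3.39 CPM against 8.33, 7.51 and 8.32 CPM (-1.87, SE 0.38, adjusted p = 0.0250). Ifit2 was at 10.3, 9.43 and 9.50 CPM against 20.7, 23.3 and 19.3 CPM (-1.11, SE 0.12, adjusted p = 0.00358) and kept its call under the alternatives tried. Bst2, tetherin, was higher (0.83, SE 0.13). Of 11 MHC class I presentation genes H2-K1, a class I heavy chain, was higher (0.91, SE 0.13, adjusted p = 0.00897) and Pdia3, a chaperone of peptide loading, lower (-0.35). Of 12 chemokines and cytokines Ccl25 was called, at 17.3, 18.1 and 13.6 CPM against 7.37, 8.91 and 7.85 CPM (1.02, SE 0.16). The calls of Bst2, H2-K1, Pdia3 and Ccl25 were lost without parental replicate 1, and that of Ifih1 without control replicate 1 or any 1 parental replicate (adjusted p up to 0.107).

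Among 27 palmitoylation enzymes 2 were called, 7.41% against 11.5% overall. Zdhhc18, a palmitoyltransferase, was higher (0.65, SE 0.15, adjusted p = 0.0350), and Lypla1, a thioesterase that removes palmitate, was lower (-0.38, SE 0.09, adjusted p = 0.0357). Of 12 common reference genes Sdha alone was called (-0.35, SE 0.08). Each of these 3 calls was lost without any 1 parental replicate, and that of Sdha without a filter.

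The direction and share of the calls varied by chromosome. Over all autosomes 11.5% of genes were called, 5.76% in each direction. Chromosome 12 had the highest share, 19.1% of 460 genes, with 77 higher and 11 lower and a median log2 fold change of 0.30. On chromosome 18 (0.18) and chromosome 6 (0.148) 36 and 64 genes were higher and 13 and 32 lower. The opposite held on chromosome 13 (-0.195), with 9 higher and 58 lower, chromosome 1 (-0.166), with 25 and 99, and chromosome 19 (-0.145), with 13 and 63. In all 6 chromosomes the 3 control medians lay on one side of the 3 parental medians, which held for 16 of the 19 autosomes, including some with medians near 0 such as chromosome 8 (0.0172). With scaling by total counts the medians of chromosomes 12, 18, 6, 13, 1 and 19 were 0.249, 0.129, 0.0971, -0.246, -0.214 and -0.198. Genes of 1 chromosome are not independent, and no test is given.

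**Figure D5:**
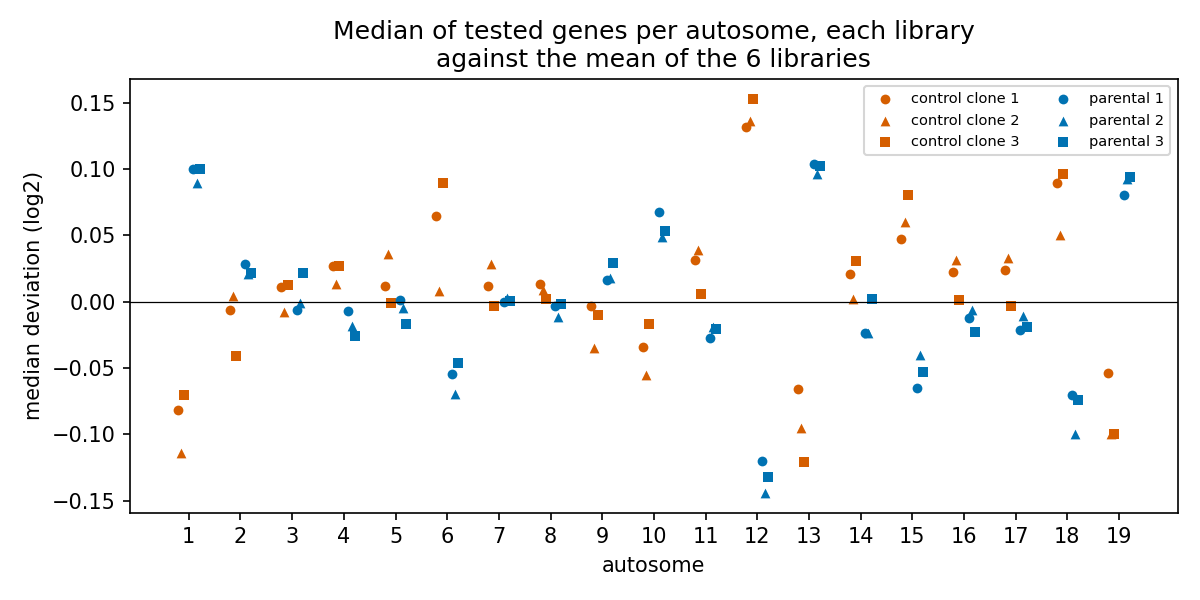
Median over the tested genes of each autosome of the deviation of log2 CPM from the gene's mean over the 6 libraries, per library. Orange marks are the control clone and blue marks the parental cells, with circle, triangle and square for replicates 1, 2 and 3. On chromosome 12 the control libraries lie between 0.13 and 0.15 and the parental ones between -0.14 and -0.12.

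Windows of 25 consecutive tested genes with an absolute median of at least 0.5 fell into 5 regions, which were chosen by these values, so their counts, beside 5.76% of all genes in each direction, are a description. On chromosome 12 the region from Dync1h1 to Siva1 (chr12:110601452-112649149 on GRCm38) had 11 of 31 genes higher and 0 lower, with 29 positive. Its most abundant called genes were Mark3, a polarity kinase, at 102.7, 109 and 93.5 CPM against 81.6, 75.3 and 76.9 CPM (0.39, SE 0.09), Inf2, a formin (0.35, SE 0.09), and Rcor1, a corepressor (0.65, SE 0.08). The region from Zbtb1 to Gm30025 (chr12:76370266-80436601) had 5 of 27 higher and 0 lower, among them Plekhg3 (0.54), Rdh11, a retinol dehydrogenase (0.68), and Vti1b, a SNARE protein (0.56). The calls of Mark3, Inf2, Rcor1, Plekhg3, Rdh11 and Vti1b were lost without parental replicate 2. Those of Mark3 and Inf2 were also lost with total counts, without a filter and with the replicate block, and that of Inf2 with size factors of DESeq2 or limma voom, so they held in 8 and 6 of 15 alternatives, against 14 for Rcor1.

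On chromosome 13 the region from Zscan26 to Acot13 (chr13:21442180-24831540), which holds a histone cluster, had 6 of 28 lower and 1 higher. Hist1h2ap, a histone H2A gene, was at 44.1, 50.2 and 45.3 CPM against 138, 119 and 136 CPM (-1.49, SE 0.10, adjusted p = 0.000771). Carmil1, a regulator of actin capping, was at 23.1, 24.6 and 29.3 CPM against 59.0, 57.8 and 49.98 CPM (-1.12, SE 0.13), and BC005537 fell by 0.48 (SE 0.09). Hist1h2ap and Carmil1 kept their calls under every alternative. Reads of histone genes are shared between near-identical copies, so the value of Hist1h2ap is uncertain.

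On chromosome 7 the region from Eml2 to Krt8-ps (chr7:19176421-23358069) had 7 of 31 higher and 1 lower. Bcam, a laminin receptor, was at 102, 72.4 and 97.8 CPM against 36.3, 41.6 and 51.5 CPM (1.08, SE 0.18), with Nectin2, an adhesion molecule (0.58), and Igsf23 (0.88) next to it. On chromosome 6 the region from Gm10069 to Mansc1 (chr6:128438757-134632488), with the Klra cluster of natural killer receptors, had 6 of 28 higher and 2 lower. Styk1, a kinase-like membrane protein, was at 73.1, 97.4 and 71.6 CPM against 32.8, 30.8 and 35.3 CPM (1.29, SE 0.14, adjusted p = 0.00358). Olr1, an oxidized LDL receptor (1.36), and Klra4 (0.58) were also higher, and Klra copies share reads. Styk1 kept its call throughout, and the calls of Bcam, Nectin2, Igsf23, Olr1 and Klra4 were lost without parental replicate 1. Nectin2 was called in 7 of 15 alternatives and lost its call also with size factors of DESeq2, total counts, a mean of at least 5 CPM or limma voom.

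The same 2-group test gave 6615 of 12362 autosomal genes (53.5%) between knockout clone and parental cells and 4198 of 12342 (34%) between knockout and control clones. At least 2-fold differences were called in 1384 (11.2%) and 1525 (12.4%), against 636 (5.1%) between control clone and parental cells. These comparisons share libraries and differ in the spread of their groups, so the counts are set side by side without a test.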

How the data were processed

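RNA-seq libraries of 3 groups of 3 were made from total RNA with the KAPA mRNA HyperPrep kit, per the labels' protocols. The authors deposited estimated counts per gene (expected counts), 1 column per library for 54838 Ensembl identifiers, and all values were whole numbers. Per the submitters' processing notes STAR 2.5.2, RSEM 1.3.0 and DESeq2 1.10.1 were used with build GRCm38, and their settings, annotation and handling of strand are not given in the sources used here. RSEM divides reads that match several genes by an estimate, so near-identical copies, overlapping genes and antisense partners are uncertain.

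Symbols and positions are from GENCODE M21 on GRCm38, which held 54809 identifiers. The 6 libraries of the control clone and the parental cells were fitted alone with edgeR 4.0.16 in R 4.3.3 (glmQLFit and glmQLFTest, group as the only term, TMM, filterByExpr with a minimum count of 10 and a minimum total of 15). Library sizes covered all chromosomes, and the 12476 genes of the 19 autosomes that passed the filter were tested with Benjamini-Hochberg adjustment. Another 10766 autosomal genes had a count and were removed. CPM are counts scaled to the library total after TMM, and CPM of the knockout clone were scaled over all 9 libraries. SE is that of the log2 fold change. Where a group had 0 counts, the fold is a bound against a floor of 3 counts over the group, and with 1 to 3 counts the ratio has a 95% interval. Reads carry no molecular identifiers and are not independent, so bounds and intervals cover counting error only.

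The genes named are Zdhhc20, the 12 highest and 12 lowest called protein-coding genes with at least 5 CPM in the higher group and no overlap between groups, called members of the lists at least 2-fold apart, protein-coding genes with 0 counts in 1 group and at least 2 CPM in the other, and the 3 most abundant called genes of each named window. Smaller differences of list members are given with their counts. The comparison, the lists and the rule were chosen with earlier results of these data known, and genes named outside the rule were chosen after their values were seen. The test was checked on simulated counts in which both groups shared the same dispersion for each gene. That check does not cover the wider spread among the control libraries. Alternatives replaced TMM by the DESeq2 1.42.0 size factors or by total counts, the filter by none or by a minimum mean of 5 CPM, and the test by DESeq2 or limma voom (limma 3.58.1). They also added a replicate block, all 9 libraries, genes of all chromosomes, each library left out, glmTreat against a fold of 1.2 and a log2 fold change of at least 1. Some members of the lists and of the called genes are counted but not reported here by name.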

Additional observations from a re-analysis of the deposited data

Results flagged for a closer look

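Genes of the Y chromosome, which the tests of autosomal genes leave out, summed to 2484 counts in the parental libraries and 591 in the control clone. Ddx3y had 772 parental counts and 0 in the control clone, Eif2s3y 460 and 0, Uty 331 and 0, and Kdm5d 297 and 1. The counts left in the control clone lay mostly in Gm47283 (325, against 283 in the parental cells) and Gm20775 (216 against 228). The line comes from a male mouse per the labels.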

How the results depend on the processing

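The 1437 calls became 1422 with size factors of DESeq2, 1563 with total counts, 1664 without a filter, 1003 with a mean of at least 5 CPM, 1421 with limma voom and 1451 with genes of all chromosomes. They became 2363 with DESeq2, 2690 in a fit of all 9 libraries, 710 with glmTreat and 636 when a 2-fold difference was also required. Leaving out 1 library gave 273 to 2526 calls. Of the 1437 genes 1430 were also called by DESeq2 and 272 without parental replicate 1, and none was called in the opposite direction under any of these settings. The cause of the drop without a parental library was not tested. The replicate numbers are not said to pair the libraries, and deviations of libraries with the same number correlated at -0.29, 0.137 and 0.383. With the replicate number as a block 978 genes were called, of which 896 were among the 1437. Zdhhc20 ranged from 0.3227 to 0.5602 over the fits without 1 library and passed the threshold only at 0.5602, without control replicate 2. Named genes and lists were followed under the alternatives other than glmTreat and the 2-fold requirement. No value changed its sign in the alternatives run for the named genes. Depth limits genes under 1 CPM, where all calls were at least 2-fold.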

Other observations

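Several other regulators were at or near 0 in the control clone, counted over 3 libraries and chosen after their values were seen. The transcription factors Bnc1, a zinc finger protein of epithelia, and Nr2f1, an orphan nuclear receptor, had 0 and 1 control counts against 105 and 93 parental counts, and 0 and 3 in the knockout clone. Gnai1, an inhibitory G protein subunit, had 1 against 92, with 13 in the knockout clone. Ptprm, a receptor tyrosine phosphatase, had 2 against 127, with 3 in the knockout clone. Glp1r, the receptor of glucagon-like peptide 1, had 1 against 72, with 57 in the knockout clone, and Rnf157, a ubiquitin ligase, had 3 against 161, with 47 in the knockout clone. All 6 were called lower.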
